A study of Mus musculus with 9 samples.

Results

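The 6 genes described here, Slc2a2, G6pc2, Slc30a8, Glp1r, Gipr and Ffar1, are named as glucose sensing and incretin receptor genes. They were taken by symbol and matched to the Ensembl identifiers of the count table, and all 6 were found among its 22048 genes. Islets from the pancreas of outbred ICR mice were cultured for 3 days in RPMI medium with 11.8, 20 or 35 mM glucose, with 3 libraries at each concentration. The 11.8 mM group was the control medium, and every group received the same serum and antibiotics. The labels give no genotype other than the strain, no age and no sex. The treatment text gives 25 mM where the titles, characteristics and series design give 35 mM, and 35 mM was followed. The islets came from 9 mice, and no label ties a library to a mouse, so the p-values measure the spread between these libraries, which may be technical.

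Beta cells take up glucose through the transporter GLUT2, encoded by Slc2a2, and break it down to make ATP. G6pc2 encodes an islet glucose-6-phosphatase catalytic subunit, which turns glucose-6-phosphate back into glucose. The rise in ATP closes potassium channels built from Kcnj11 and Abcc8 subunits and lets calcium trigger insulin release. Slc30a8 encodes ZnT8, which carries zinc into insulin granules, where insulin is stored as a zinc-bound crystal. GLP-1 and GIP, the gut incretin hormones, raise cAMP in beta cells through the receptors encoded by Glp1r and Gipr. Ffar1 encodes a receptor for long-chain fatty acids that couples to Gq and phospholipase C.

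Libraries held 3228648 to 4559561 gene counts from CEL-Seq2, which reads the 3' end of transcripts. Counts per 1000000 gene counts (CPM) were therefore not divided by length. They are reads not collapsed by molecular identifier, so levels compared between genes are read levels and not transcript numbers. CPM values are scaled between libraries by TMM, a normalization of edgeR, unless stated otherwise. Markers of beta cells took 50.3% to 58.8% of the counts, alpha cell markers 1.27% to 1.94% and acinar enzymes, from the exocrine tissue around islets, 0.345% to 1.30%. Among the 7 beta cell markers, Mafa had 1 read in all libraries. Each library is the sum of 3 barcoded sub-libraries, of which 1 in 11.8 mM replicate 1 and 1 in 35 mM replicate 1 were low in a single insulin gene, Ins1 and Ins2 respectively. These 2 also held the most reads without a unique alignment, 600499 and 760219, where the other sub-libraries held 119126 to 388849. Whether this bears on their insulin counts was not tested. Values of G6pc2, Slc30a8, the ratios, Trpm5 and Pcsk1 are also given without these 2 sub-libraries. In RNA of whole islets, fewer cells of a type and less RNA per cell cannot be told apart.

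None of the 5 members with enough counts to test was called in any comparison, where a call is an adjusted p under 0.05 by the quasi-likelihood test of edgeR, adjusted over 9739 genes by Benjamini-Hochberg. Across all genes tested, 0.185% were called at 20 against 11.8 mM (0.154% higher, 0.0308% lower), 0.863% at 35 against 11.8 mM (0.626% higher, 0.236% lower) and 0.0308% at 35 against 20 mM (0% lower). In a test of any difference among the 3 concentrations 0.606% were called. At an unadjusted p under 0.05 there was 1 member at 20 against 11.8 mM (G6pc2), 2 at 35 against 11.8 mM (G6pc2 and Slc30a8) and 1 at 35 against 20 mM (Slc30a8), where all genes gave 7.97%, 10.5% and 5.29%. DESeq2, run as an alternative, called 1, 2 and 0 members in the same order. It called 51, 97 and 3 genes in all, which are 1.72%, 1.89% and 0.0188% of those to which it gave an adjusted p. The median log2 fold change of the 5 members was -0.01, -0.28 and 0.02, and that of all tested genes was -0.00 in each comparison. Glp1r had too few counts and was not tested.

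**Figure D1:**
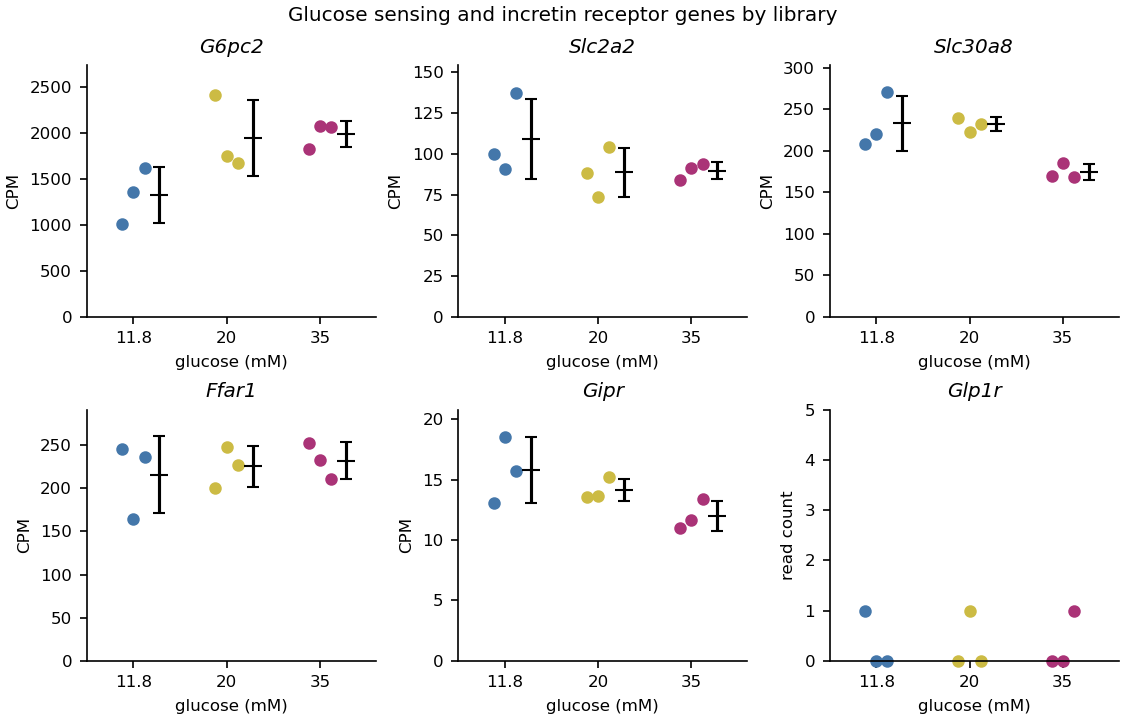
Each panel shows 1 gene, with glucose on the horizontal axis and each library as a point. The vertical axis is CPM from 0, or the read count for Glp1r, and black bars are the mean and SD of 3 libraries. The 11.8 mM libraries of G6pc2 (1012 to 1616 CPM) lie below all others, the 35 mM libraries of Slc30a8 (168 to 185 CPM) lie below all others, and Glp1r has at most 1 read in a library.

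G6pc2 had the most reads of the members and was the only one whose libraries stood higher in elevated glucose. It lies at chr2:69211073-69227841 on the plus strand of GRCm38 in the GENCODE M21 annotation. At 11.8 mM its level was 1012, 1354 and 1616 CPM. At 20 mM it was 2419, 1749 and 1670 CPM, and at 35 mM it was 1821, 2073 and 2065 CPM. All 6 libraries in elevated glucose were above the highest control library, and the groups at 20 and 35 mM overlapped.

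The mean level of G6pc2 was 1328 ± 303 CPM at 11.8 mM, 1946 ± 412 at 20 mM and 1987 ± 143 at 35 mM (SD, n = 3). The log2 fold change at 20 against 11.8 mM was 0.55 (95% interval 0.23 to 0.87), a 1.47-fold difference, with an adjusted p of 0.200 by edgeR. At 35 against 11.8 mM it was 0.58 (0.26 to 0.90) with an adjusted p of 0.0814. Both intervals lay above 0, and neither difference passed the threshold over all genes. Between 35 and 20 mM the log2 fold change was 0.03 with an interval of -0.29 to 0.35, which spans 0.818-fold to 1.28-fold. With the 2 low-insulin sub-libraries left out, the log2 fold change was 0.55 at 20 against 11.8 mM (adjusted p = 0.222) and 0.58 at 35 against 11.8 mM (adjusted p = 0.0913).

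Other cell markers were read beside this difference. The summed beta cell markers took 50.9% to 58.8% of counts at 11.8 mM, 50.3% to 55.2% at 20 mM and 51.9% to 56.3% at 35 mM, overlapping ranges. Most of this sum was Ins1 and Ins2, so it says little about the other beta cell markers. Of the 6 tested, 5 had a log2 fold change below 0 at 20 against 11.8 mM and 2 at 35 against 11.8 mM. Iapp, which encodes the granule peptide amylin, rose at 35 against 11.8 mM (log2 fold change 0.63, adjusted p = 0.00865 by edgeR). Ins1 and Ins2 were not called. No tested marker of alpha, delta, PP, acinar, duct, endothelial, fibroblast or immune cells was called in any pairwise comparison. Fibroblast and stellate markers took 0.0360% to 0.0688% of counts at 11.8 mM and 0.0293% to 0.0497% at 35 mM, with none of 12 at 0. Of the 10 tested, 8 were lower at 20 and 8 at 35 against 11.8 mM, with median log2 fold changes of -0.36 and -0.50. Endothelial markers took 0.00154% to 0.00171% at 11.8 mM and 0.000976% to 0.00118% at 35 mM, without overlap and with Kdr at 0 at 35 mM. Immune markers were lower in 10 of 10 tested at 20 against 11.8 mM and in 8 of 10 at 35 against 11.8 mM. In the latter, 4 were lower without overlap, as were 6.69% of all genes tested. Acinar markers were higher in 16 of 17 tested at 20 against 11.8 mM and in 10 of 17 at 35 against 11.8 mM. With an acinar covariate the G6pc2 value was 0.54 at 20 against 11.8 mM (adjusted p = 0.441 by edgeR). At 35 against 11.8 mM it was 0.57 (adjusted p = 0.158 by edgeR). The part of the other cell types was not tested.

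The G6pc2 call depended on the test and on 1 library. DESeq2 called it at 20 mM (adjusted p = 0.0329) and at 35 mM (adjusted p = 0.0150), as did edgeR without an expression filter (0.0220 and 0.00355). Without 11.8 mM replicate 3, the control library with the highest level, the log2 fold change at 35 mM was 0.74 and the adjusted p 0.0256. Without 20 mM replicate 1 the difference at 20 mM was 0.36 (adjusted p = 0.770 by edgeR), against 0.55 with it. The highest adjusted p values were 0.871 at 20 mM and 0.597 at 35 mM, both by edgeR with sub-library 2 only. In all, G6pc2 was called in 3 of 21 alternatives in each of these comparisons, and its log2 fold change was above 0 in all 21, from 0.36 to 0.71 at 20 mM and from 0.42 to 0.74 at 35 mM.

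The sub-libraries show how much of this spread lies within a sample. In CPM without TMM scaling, the 9 sub-libraries of the 11.8 mM samples ran from 1026 to 1531 for G6pc2, those at 20 mM from 1201 to 2571 and those at 35 mM from 1704 to 2450. The sub-libraries at 35 mM were all above those at 11.8 mM, whereas those at 20 mM overlapped both. The median coefficient of variation among the 3 sub-libraries of a sample was 11.7%, where counting alone gives 2.10%. Sub-libraries share their sample and are not replicates of a concentration.

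**Figure D2:**
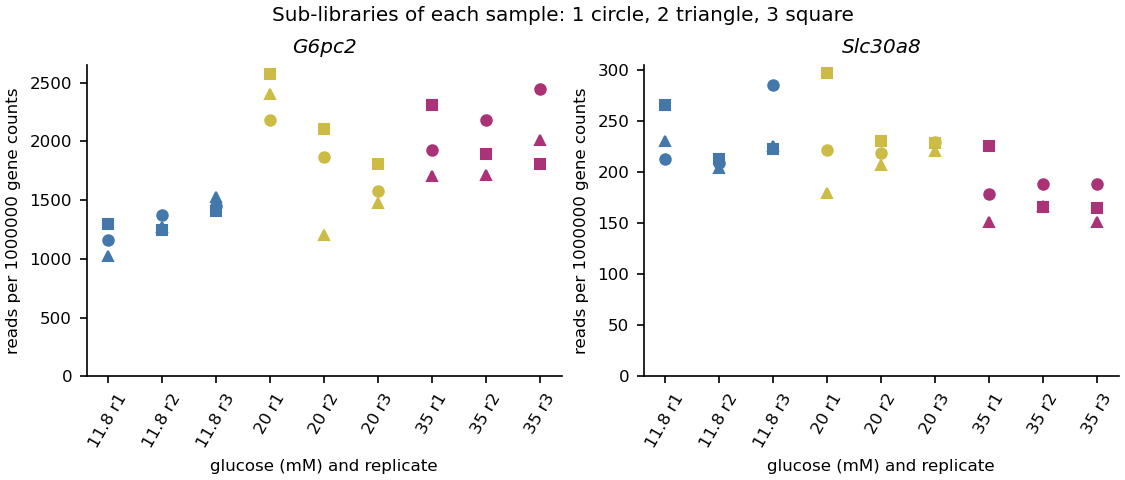
Points are sub-libraries in reads per 1000000 gene counts, with the sample on the horizontal axis and the shape giving the sub-library number. The 35 mM sub-libraries of G6pc2 (1704 to 2450) lie above those at 11.8 mM (1026 to 1531), and the sub-libraries of Slc30a8 at 35 mM (152 to 226) overlap those at 11.8 mM (204 to 286).

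Promoter windows of G6pc2 and Slc2a2 are shown because their levels had the farthest patterns of any pair of members. Both are the 250 bases before a start site in RefSeq's table for GRCm38.p6, plus strand. They lie at chr2:69219699-69219948 for the coding transcripts of G6pc2, inside the annotated gene, and at chr3:28697653-28697902 for Slc2a2. Capitals mark matches, on either strand, to any E-box (CANNTG), the homeodomain core TAAT and TGCTGA, part of a Maf site.
G6pc2: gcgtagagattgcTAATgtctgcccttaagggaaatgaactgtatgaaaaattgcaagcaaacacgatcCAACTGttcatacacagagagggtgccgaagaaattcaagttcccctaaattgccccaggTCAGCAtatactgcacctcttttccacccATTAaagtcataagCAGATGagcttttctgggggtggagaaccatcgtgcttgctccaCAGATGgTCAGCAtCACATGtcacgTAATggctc
Slc2a2: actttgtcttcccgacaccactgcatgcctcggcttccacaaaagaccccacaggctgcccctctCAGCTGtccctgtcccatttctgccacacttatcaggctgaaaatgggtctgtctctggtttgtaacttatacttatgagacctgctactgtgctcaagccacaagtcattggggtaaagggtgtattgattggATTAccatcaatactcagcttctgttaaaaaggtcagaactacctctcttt
The G6pc2 window shown holds 4 CANNTG words, 3 TAAT cores and 2 TGCTGA words. A CANNTG word is found in 66.2% of the 32851 windows of the same length, a TAAT core in 54.9% and a TGCTGA word in 16.1%. The Slc2a2 window holds 1 CANNTG word and 1 TAAT core. A second G6pc2 window, at chr2:69210823-69211072, also holds 1 CANNTG word and 1 TAAT core, so the contrast depends on the window. None of these windows holds CACGTG, an E-box form read by the glucose-responsive factor ChREBP (6.02% of windows, and a subset of CANNTG). None holds the cAMP response element TGACGTCA (1.55% of windows). The Ffar1 window has 3 CANNTG words and 1 TGCTGA word, and that of Glp1r has 1 CANNTG word. A match describes letters in the window and shows no binding.

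Slc2a2, the transporter, is at chr3:28697903-28731359 on the plus strand. It measured 99.9, 90.7 and 137 CPM at 11.8 mM, then 88.1, 73.5 and 104 CPM at 20 mM and 83.7, 91.5 and 94.0 CPM at 35 mM. The groups overlapped, with the highest value in 11.8 mM replicate 3. The log2 fold change was -0.30 at 20 against 11.8 mM (95% interval -0.61 to 0.01, adjusted p = 0.637 by edgeR) and -0.28 at 35 against 11.8 mM (-0.59 to 0.03, adjusted p = 0.542). Between 35 and 20 mM it was 0.02 (adjusted p = 0.999). Without 11.8 mM replicate 3 the values against 11.8 mM were -0.11 and -0.09. With the acinar covariate they were -0.15 and -0.17.

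Read-count ratios within a library do not depend on how libraries are scaled. The ratio of G6pc2 to Slc2a2 was 10.1, 14.9 and 11.8 at 11.8 mM. It was 27.5, 23.8 and 16.0 at 20 mM and 21.8, 22.7 and 22.0 at 35 mM. The 6 ratios in elevated glucose were all above the 3 controls, and the 35 mM ratios were close together. The mean difference on the log2 scale was 0.85, or 1.81-fold, at 20 mM and 0.87, or 1.83-fold, at 35 mM. The two-sided exact permutation test of 3 libraries against 3 gave p = 0.1 for each, the smallest it can give, and 0.18 after adjustment over all 9 ratio comparisons computed. At 35 against 20 mM the difference was 0.02 (exact permutation p = 1). Without the low-insulin sub-libraries the differences against 11.8 mM were 0.85 at each concentration.

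Slc30a8 was lower in all 3 libraries at 35 mM than in any other library. It lies at chr15:52295553-52335798, plus strand. Its level was 208, 221 and 270 CPM at 11.8 mM, 240, 223 and 233 CPM at 20 mM and 170, 185 and 168 CPM at 35 mM. The groups at 11.8 and 20 mM overlapped, and both stood above 35 mM. Means were 233 ± 33.0, 232 ± 8.54 and 174 ± 9.31 CPM (SD, n = 3).

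For Slc30a8 the log2 fold change at 35 against 11.8 mM was -0.42 (95% interval -0.68 to -0.15), or 0.749-fold, with an adjusted p of 0.167 by edgeR. At 35 against 20 mM it was -0.41 (-0.68 to -0.15) with an adjusted p of 0.878, and at 20 against 11.8 mM it was -0.01 (-0.27 to 0.26). Both comparisons with 35 mM had intervals below 0 and missed the threshold. DESeq2 called the gene at 35 against 11.8 mM (adjusted p = 0.0477), and so did edgeR without 11.8 mM replicate 1 (adjusted p = 0.0423). Those were 2 of 22 alternatives, and the log2 fold change was below 0 in all 22. Without 11.8 mM replicate 3 the value was -0.30 (adjusted p = 0.501 by edgeR), and with the acinar covariate it was -0.38 (adjusted p = 0.315). Without the 2 low-insulin sub-libraries it was -0.43 with an adjusted p of 0.170, and at 35 against 20 mM it was -0.42 (adjusted p = 0.861).

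Relative to insulin mRNA, Slc30a8 mRNA was also lower at 35 mM. The log2 difference of its ratio to the sum of Ins1 and Ins2 was -0.33, or 0.797-fold, at 35 against 11.8 mM and -0.39, or 0.765-fold, at 35 against 20 mM. The 35 mM libraries overlapped neither group, the exact permutation p was 0.1 for each, the smallest possible, and the adjusted p was 0.18. At 20 against 11.8 mM the difference was 0.06 (exact permutation p = 0.7). Without the low-insulin sub-libraries the differences were -0.36 at 35 against 11.8 mM, -0.47 at 35 against 20 mM and 0.11 at 20 against 11.8 mM. Markers of alpha cells, which also express Slc30a8, took 1.41% to 1.94% of counts at 11.8 mM, 1.31% to 1.70% at 20 mM and 1.27% to 1.52% at 35 mM, overlapping ranges with none of the 6 markers at 0. Their log2 fold changes were below 0 for 5 of 6 at 35 against 11.8 mM (median -0.21) and for 6 of 6 at 35 against 20 mM (median -0.18), none of them called. Gcg, the most abundant of them, did not overlap between 35 and 11.8 mM. The part of the alpha cell markers in the result was not tested.

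**Figure D3:**
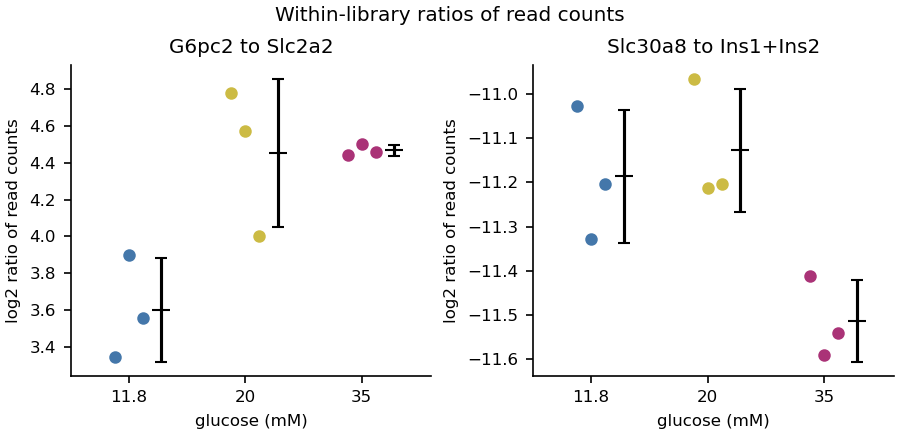
Each point is the log2 ratio of read counts in 1 library, with glucose on the horizontal axis and bars for the mean and SD of 3 libraries. The ratio of G6pc2 to Slc2a2 averages 3.60 at 11.8 mM, 4.45 at 20 mM and 4.47 at 35 mM, and that of Slc30a8 to the insulin genes averages -11.19, -11.13 and -11.51.

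The incretin receptors had the fewest reads of the members. Gipr lies at chr7:19156061-19166127 on the minus strand and had 463 reads in all, 40 to 80 a library. Its level was 13.1, 18.5 and 15.7 CPM at 11.8 mM, 13.5, 13.6 and 15.2 CPM at 20 mM and 11.0, 11.6 and 13.4 CPM at 35 mM. The 35 mM libraries lay below those at 20 mM, by 13.4 against 13.5 CPM at the closest, and overlapped those at 11.8 mM. The log2 fold change at 35 against 11.8 mM was -0.40 (95% interval -0.84 to 0.04, adjusted p = 0.539 by edgeR), and at 35 against 20 mM it was -0.24 (adjusted p = 0.960). At 20 against 11.8 mM it was -0.16 (-0.59 to 0.27). Without 11.8 mM replicate 2 the values against 11.8 mM were -0.26 at 35 mM and -0.022 at 20 mM. Its sub-libraries varied with a median coefficient of variation of 25.2%, close to the 24.7% that counting alone gives. Whether more depth would narrow this spread was not tested.

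Glp1r, at chr17:30901817-30940791 on the plus strand, was nearly without reads. One library at each concentration held 1 read (11.8 mM replicate 1, 20 mM replicate 2 and 35 mM replicate 3) and the other 6 held none. That is 3 reads of 33137088, or 0.0905 CPM with an exact Poisson 95% interval of 0.0187 to 0.265, which covers counting error only. A count of 0 allows up to 0.658 CPM in the deepest library and 0.929 in the shallowest (3 counts). No fold is given, since no library held more than 1 read. Of the reads of both incretin receptors, Glp1r made up 0.644% (exact binomial interval 0.133% to 1.87%).

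Glp1r is known as a beta cell receptor, and other genes known from beta cells were as low in the same libraries. Kcnj11, the pore subunit of the ATP-sensitive potassium channel, had 3 reads and Mafa, an insulin gene activator, had 1. Abcc8, the partner subunit of Kcnj11, had 9579 reads. Gcgr, the glucagon receptor, had 275 and the lipid receptor gene Gpr119 had 342. The annotation gives Glp1r 1 coding transcript, and no member's exons overlap those of another gene. The cause of the near absence of Glp1r reads was not tested.

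Ffar1, the fatty acid receptor at chr7:30857390-30861564 on the minus strand, overlapped in its libraries between all concentrations. Its level was 246, 165 and 237 CPM at 11.8 mM, 200, 248 and 227 CPM at 20 mM and 253, 232 and 210 CPM at 35 mM. Group means were 216 ± 44.3, 225 ± 23.9 and 232 ± 21.3 CPM (SD, n = 3), closer together than the libraries within a group. The log2 fold change was 0.06 (-0.23 to 0.36) at 20 against 11.8 mM, 0.10 (-0.19 to 0.40) at 35 against 11.8 mM and 0.04 (-0.25 to 0.33) at 35 against 20 mM, with adjusted p values of 0.957, 0.880 and 0.992 by edgeR. Among the other fatty acid receptors, over all libraries Ffar2 had 27.3 unscaled CPM, Ffar3 10.4 and Ffar4 2.99.

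**Figure D4:**
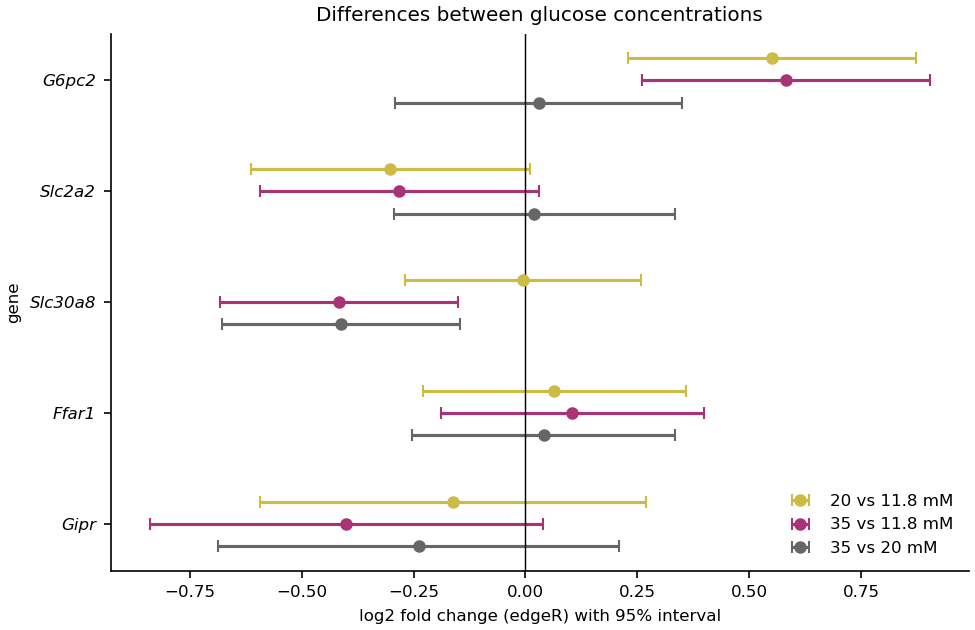
Points are log2 fold changes from edgeR and bars their 95% intervals, for 5 genes in 3 comparisons. The intervals of G6pc2 against 11.8 mM (0.23 to 0.87 and 0.26 to 0.90) lie above 0, those of Slc30a8 involving 35 mM lie below 0, and the other intervals include 0.

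The order of mean levels at 11.8 mM was G6pc2, Slc30a8, Ffar1, Slc2a2, Gipr and Glp1r. Slc30a8 and Ffar1 overlapped in their libraries at 11.8 and 20 mM, and at 35 mM Ffar1 (210 to 253 CPM) stood above Slc30a8 (168 to 185 CPM). The libraries of every other pair of neighbours did not overlap at any concentration. By mean level among the 9739 genes tested, G6pc2 ranked 27, 20 and 19 at 11.8, 20 and 35 mM, Slc30a8 ranked 215, 237 and 350, and Gipr ranked 4064, 4325 and 4840.

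Counted by libraries that did not overlap, 1 of 5 members (G6pc2, higher) separated at 20 against 11.8 mM, where 12.8% of all genes did (6.79% higher, 6.04% lower). At 35 against 11.8 mM there were 2 (G6pc2 higher, Slc30a8 lower), against 14.9% of all genes (8.22% higher, 6.69% lower). At 35 against 20 mM there were 2 (Slc30a8 and Gipr, lower), against 11.9% (6.15% higher, 5.76% lower). Over the 9 libraries the patterns of Slc30a8 and Gipr were the closest pair, with a root mean square difference of 0.18 in centred log2 CPM, and those of Slc2a2 and G6pc2 the farthest, at 0.47. The comparisons share control libraries, so their values are set side by side and not correlated.

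By the same distance, over 4557 genes of sufficient level and spread, the genes most like each member were ranked. For G6pc2 these were Sec61g, a subunit of the channel that brings new proteins into the endoplasmic reticulum, at 0.13, Cox6b1, a subunit of respiratory complex IV, at 0.14 and Gprin3 at 0.14. For Slc30a8 they were Eci2 and Oxct1, enzymes of fatty acid and ketone body breakdown, and Isl1, an islet transcription factor, each at 0.09. For Slc2a2 they were Klhl32 at 0.10 and Zrsr1 at 0.11. For Gipr they were Shisal2b at 0.07, Anp32e at 0.08 and Eif3i at 0.09, and for Ffar1 they were Eif4g1, Srrm2 and Syt7, at 0.08 to 0.09. Distances between genes of the same libraries share depth and scaling and are descriptions.

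Genes around these members were taken from 8 pathway groups. Of the glucose uptake and phosphorylation group, 18 of 23 genes were tested and none was called in a pairwise comparison. The 2 with the smallest p were Slc2a5, a fructose transporter, with a log2 fold change of 0.37 at 35 against 11.8 mM (adjusted p = 0.378 by edgeR), and Pfkm, a phosphofructokinase, with -0.49 at 20 against 11.8 mM (adjusted p = 0.560). Of 11 tested genes of the ATP-sensitive potassium and calcium channel group, 1 fell at 35 against 11.8 mM. This was Trpm5, a calcium-activated cation channel, from 41.3 to 21.7 CPM, with -0.93 ± 0.17 as log2 fold change and SE (adjusted p = 0.00323 by edgeR). Its 11.8 mM libraries (38.0 to 43.2 CPM) lay above those at 35 mM (18.2 to 24.4 CPM). Without 35 mM replicate 1 its log2 fold change was -0.82 and the adjusted p 0.0544, and without the low-insulin sub-libraries they were -0.91 and 0.00578. In sub-library 1 or 2 alone the difference was -1.08 (adjusted p = 0.176) and -0.72 (adjusted p = 0.354). Its exons overlap Tssc4 on the opposite strand, and the strand used in counting is not given in the sources used here.

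Among the incretin precursors and the proteases that make or cut them, 4 of 7 were tested and Pcsk1, the prohormone convertase that can cut GLP-1 out of proglucagon and also processes proinsulin, rose at both 20 and 35 mM. It measured 121, 121 and 131 CPM at 11.8 mM, 244, 195 and 189 CPM at 20 mM and 185, 205 and 209 CPM at 35 mM, with no overlap between controls and elevated glucose. The log2 fold changes were 0.75 ± 0.13 and 0.68 ± 0.13 (SE), with adjusted p values of 0.00543 and 0.00500 by edgeR. Without 20 mM replicate 1 the value at 20 mM was 0.63 and the adjusted p 0.0849. Without the low-insulin sub-libraries the values were 0.74 (adjusted p = 0.00780) and 0.68 (adjusted p = 0.00578). Gcg, the glucagon and GLP-1 precursor, had a log2 fold change of -0.24 at 35 against 11.8 mM (adjusted p = 0.556).

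In the cAMP group downstream of the incretin receptors, 25 of 36 genes were tested and edgeR called none between pairs of concentrations. Crem, a cAMP-responsive transcriptional regulator, passed the test of any difference (adjusted p = 0.0462 by edgeR), with log2 fold changes of 0.74 at 20 mM (adjusted p = 0.0632) and 0.66 at 35 mM (adjusted p = 0.0583). At 20 mM it was called by DESeq2 (adjusted p = 0.0205) and by edgeR without an expression filter (adjusted p = 0.0273). Those were 2 of 22 alternatives, in which the Crem value ran from 0.43 to 0.91 and the adjusted p reached 0.888. With a library left out, the adjusted p for Crem by edgeR was 0.0583 to 0.406. Prkar2a, a regulatory subunit of protein kinase A, had 0.60 at 35 mM (adjusted p = 0.0788). In the Gq and phospholipase group downstream of Ffar1, 17 of 22 were tested and none was called. At 35 against 11.8 mM, Itpr1, a calcium release channel, was at -0.91 (adjusted p = 0.0720). Rgs16, which shortens G protein signals, was at 1.34 there (adjusted p = 0.143). Rgs16 had few reads, 5 to 9 a library at 11.8 mM and 16 to 19 at 35 mM.

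None of the 17 tested of 34 other islet G protein-coupled receptors was called, nor any of the 20 tested of 26 zinc transporters and metallothioneins, nor any of the 17 tested of 19 transcription factors known from islet gene promoters. The receptor group had a median log2 fold change of 0.32 at 35 against 11.8 mM, with 12 of 17 above 0, beside a median of -0.00 over all tested genes. The zinc group had a median of 0.22 there with 15 of 20 above 0, and the cAMP group -0.03 with 17 of 25 below 0. The receptor group includes Adra2a, the adrenergic receptor that lowers insulin release, at 0.46 (adjusted p = 0.288 by edgeR). Adra2a had 0.59 at 35 against 20 mM (adjusted p = 0.747) and -0.13 at 20 against 11.8 mM (adjusted p = 0.927). The receptor group also includes Ptger3, a prostaglandin receptor, at 1.86 at 35 against 11.8 mM (adjusted p = 0.162), with 1 to 25 reads a library. In the zinc group Mt3, a metallothionein, had 2.06 at 20 against 11.8 mM (adjusted p = 0.0858) and Slc30a6, another zinc transporter, 0.68 (adjusted p = 0.181). Mt3 had few reads, 2 to 6 a library at 11.8 mM and 11 to 20 at 20 mM. Mlxipl, which encodes ChREBP, had -0.39 at 20 against 11.8 mM (adjusted p = 0.463), and Isl1 -0.35 at 35 against 11.8 mM (adjusted p = 0.336).

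**Figure D5:**
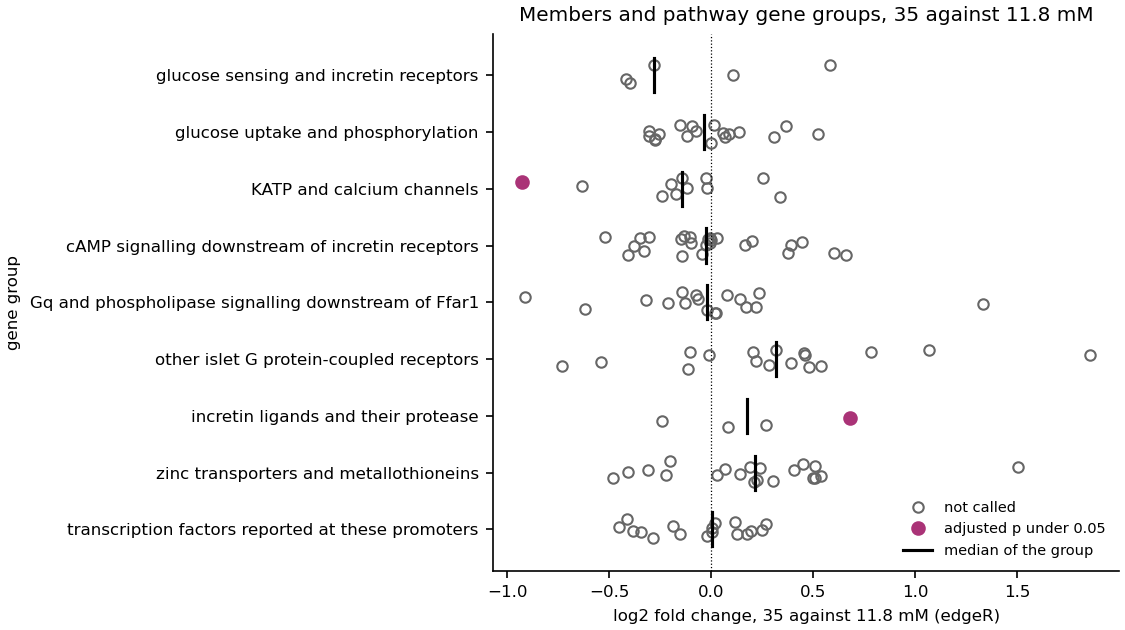
Each point is a tested gene, with its log2 fold change at 35 against 11.8 mM on the horizontal axis and its group on the vertical axis. Filled points passed the threshold, which are Trpm5 at -0.93 and Pcsk1 at 0.68, and black lines are group medians, -0.28 for the members and 0.32 for other islet G protein-coupled receptors.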

How the data were processed

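RNA of islets was made into CEL-Seq2 libraries at 3 glucose concentrations, 3 samples each. The authors deposited read counts per gene and sub-library, for which the submitters' processing notes list TopHat, HTSeq and cutadapt with the build GRCm38.p4; tool versions, annotation and strand setting: not given in the sources used here. Counts were not collapsed by molecular identifier (16 genes exceeded the 4096 possible identifiers), so the Poisson and binomial intervals and the limits from a count of 0 cover counting error only, while fold-change intervals come from the fit over libraries. The sample sheet tied 27 columns to 9 samples, and 30 other columns of per-sample values were not used. Summary lines (19.6% to 29.9% of counted reads) and 92 spike-ins were left out.

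The sub-libraries were summed and tested with edgeR 4.0.16 in R 4.3.3: TMM scaling, filterByExpr, a robust quasi-likelihood fit with a mean for each concentration over 9 libraries (6 residual degrees of freedom), and Benjamini-Hochberg adjustment over 9739 genes. The method was tested on simulated data. How often it calls differences as small as those of the members is not reported here. CPM values use TMM-scaled library sizes. Ratios used raw counts with at least 20 reads a library and a two-sided exact permutation test; the Glp1r to Gipr ratio was left out by that minimum. From each pathway group the called genes were named, and otherwise those with the 2 lowest p values, along with Kcnj11, Abcc8, Gcg and the 3 genes most like each member; some genes and a ratio that this rule covers are not reported here. The likeness search used genes of at least 10 CPM with an SD of at least 0.15 in log2(CPM + 1). Genes outside that rule (Gcgr, Gpr119, Ffar2, Ffar3, Ffar4, Mafa, Iapp) were chosen after their values were seen. The members and lists were chosen with earlier results of these data known. Alternatives were DESeq2 1.42.0 and its size factors, other filters, removal of abundant genes or of insulin from the scaling, a replicate block, an acinar covariate, single sub-libraries, fits of 2 concentrations and each library left out.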

Additional observations from a re-analysis of the deposited data

How the results depend on the processing

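Of 327 refits of the members' log2 fold changes, 297 kept direction and side of the threshold, 8 gained a call, and 22 changed sign, all of differences that were not called in any setting. Members called numbered 1 at 20 against 11.8 mM without an expression filter, with DESeq2 and with sub-library 3 only, and at 35 against 11.8 mM 1 without a filter, 2 with DESeq2 and 0 to 1 with a library left out. For any concentration they numbered 1 without a filter, 1 with DESeq2 and 0 to 1 with a library left out. Genes called at 20 against 11.8 mM went from 18 to 51 without a filter, 51 with DESeq2, 11 with the acinar covariate, 11 in a fit of 2 concentrations, 2 and 8 with sub-libraries 1 and 2, and 7 (without 20 mM replicate 1) to 35 (without 11.8 mM replicate 2). At 35 against 11.8 mM they went from 84 to 148 without a filter, 12, 42 and 39 with the single sub-libraries and 41 (without 35 mM replicate 1) to 138 (without 11.8 mM replicate 1). At 35 against 20 mM they went from 3 to 1 with each sub-library and 1 (without 20 mM replicate 3) to 7 (without 35 mM replicate 3). For any concentration they went from 59 to 126 without a filter, 38 with the covariate, 8, 29 and 32 with the sub-libraries and 34 (without 11.8 mM replicate 3) to 75 (without 11.8 mM replicate 2). The cause was not tested, except that a single sub-library holds fewer reads.

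Signs changed for Slc30a8 at 20 against 11.8 mM (0.045 with the acinar covariate, 0.10 with sub-library 3, -0.085 to 0.11 with a library left out) and Gipr (0.38 with sub-library 2). For Ffar1 the range with a library left out was -0.10 to 0.16 at 20 and -0.057 to 0.20 at 35 against 11.8 mM, with -0.050 in sub-library 2. At 35 against 20 mM, Slc2a2 gave -0.013 with the covariate, -0.22 with sub-library 2 and -0.10 to 0.15 with a library left out. G6pc2 there gave -0.15 with sub-library 3 and -0.068 to 0.22, Gipr 0.14 and 0.13 with sub-libraries 1 and 3, and Ffar1 -0.059 with sub-library 2 and -0.037 to 0.12. The ratio of G6pc2 to Slc2a2 at 35 against 20 mM was 0.35 in sub-library 2. G6pc2 is among the 20 most abundant genes, so the fit without these gives it no value. Of 317 refits of the other named genes, 302 kept direction and side of the threshold, 7 gained a call and 8 lost one. Pcsk1 lost its call in sub-libraries 1 (adjusted p = 0.210) and 3 (0.130) at 20 mM and in the same at 35 mM (0.0962 and 0.157). Ratios without the 2 low-insulin sub-libraries were added after the data were seen.

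The replicate number as a block gave 13, 74, 3 and 51 genes called in the 4 tests and 0 members in each. The numbers were not taken as pairs, since deviations of same-numbered samples correlated by -0.30 to 0.12 over genes, above 0.1 in 1 of 9 pairs.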
